A study of Mus musculus with 5 samples.

Results

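Meis1, Gata2, Prdm16 and Mecom encode transcription factors that sustain self-renewal of blood stem cells, and their chromatin was examined here for the ubiquitinated form of histone H2A known as H2AK119Ub. Each gene was represented by a fixed window of the mouse genome build mm9, and every listed H2AK119Ub peak that overlapped a window by at least 1 bp was taken. The windows were chromosome 11, 18760000 to 18940000 for Meis1 (180 kb), chromosome 6, 88120000 to 88180000 for Gata2 (60 kb), chromosome 4, 153670000 to 154030000 for Prdm16 (360 kb), and chromosome 3, 29840000 to 30420000 for Mecom (580 kb). Of the 5132 peaks of the 4 peak lists, 14 lay in these 4 windows. The PML-RARa list contributed 6 of its 1772 peaks, the MLL-AF9 list 4 of 1408, the HOXA9 list 3 of 620 and the non-transduced list 1 of 1332.

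The peaks came from chromatin immunoprecipitation and sequencing of Lin- progenitor cells enriched from bone marrow and kept in liquid culture. All animals were C57BL/6 mice of the genotype R26CreERT2;Ring1a-/-;Ring1bf/f;Cdkn2a-/-, so the controls too lacked Cdkn2a, a tumour suppressor locus, and Ring1a, which encodes a ubiquitin ligase of Polycomb repressive complex 1 (PRC1). They also carried conditional alleles of Ring1b and an inducible Cre recombinase at Rosa26; the labels do not say whether Ring1b had been deleted. Cells were non-transduced or transduced with HOXA9, a homeobox gene, with PML-RARa, the fusion oncogene of acute promyelocytic leukaemia, or with MLL-AF9, a fusion oncogene of acute myeloid leukaemia. Each group had 1 library, so nothing below was tested and every difference is one between single libraries. All 3 oncogene lists are set against the same non-transduced library, and no cells carrying an empty vector were described, so oncogene and transduction cannot be told apart. The purity and cell type of the cultures could not be checked, because peak lists hold no marker expression.

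PRC1 attaches ubiquitin to H2A through its RING1 subunits, and the mark is typically found over CpG-rich promoters of repressed developmental genes. MEIS1 is a homeodomain protein that binds DNA together with HOXA9 and with PBX proteins, and it is a well-known cofactor in MLL-rearranged leukaemia. GATA2 is a zinc finger factor needed for the generation and upkeep of blood stem cells. PRDM16 and MECOM are related zinc finger proteins with a PR domain; Mecom gives rise to the long MDS1-EVI1 protein from an outer start and to the shorter EVI1 protein from an inner one.

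The start regions of the genes are shown because CpG-rich starts are the usual sites of the mark. RefSeq held 6 starts for these genes, 1 each for Meis1 and Prdm16 and 2 each for Gata2 and Mecom. The 250 bases before each are printed 5′ to 3′, with every CpG in capitals. Their positions are those of RefSeq's build GRCm38.p6; they cannot be compared with the mm9 positions of the peaks, and none was converted.
Meis1, chr11:19018970-19019219, minus strand: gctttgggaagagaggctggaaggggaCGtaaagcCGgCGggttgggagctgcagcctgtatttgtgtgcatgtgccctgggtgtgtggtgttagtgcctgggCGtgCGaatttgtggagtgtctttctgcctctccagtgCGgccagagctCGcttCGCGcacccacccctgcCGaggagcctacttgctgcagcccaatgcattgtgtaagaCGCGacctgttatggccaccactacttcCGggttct
Gata2 outer start, chr6:88193641-88193890, plus strand: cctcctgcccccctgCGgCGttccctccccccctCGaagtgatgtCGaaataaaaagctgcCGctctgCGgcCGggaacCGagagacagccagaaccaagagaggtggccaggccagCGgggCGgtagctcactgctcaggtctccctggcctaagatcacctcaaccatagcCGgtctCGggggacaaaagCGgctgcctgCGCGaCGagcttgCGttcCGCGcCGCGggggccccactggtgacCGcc
Gata2 inner start, chr6:88198414-88198663, plus strand: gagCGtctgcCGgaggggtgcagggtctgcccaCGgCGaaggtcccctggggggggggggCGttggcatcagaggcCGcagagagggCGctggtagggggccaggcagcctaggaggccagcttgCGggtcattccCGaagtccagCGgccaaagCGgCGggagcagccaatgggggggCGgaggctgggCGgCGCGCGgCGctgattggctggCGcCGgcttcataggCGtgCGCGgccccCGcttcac
Prdm16, chr4:154636874-154637123, minus strand: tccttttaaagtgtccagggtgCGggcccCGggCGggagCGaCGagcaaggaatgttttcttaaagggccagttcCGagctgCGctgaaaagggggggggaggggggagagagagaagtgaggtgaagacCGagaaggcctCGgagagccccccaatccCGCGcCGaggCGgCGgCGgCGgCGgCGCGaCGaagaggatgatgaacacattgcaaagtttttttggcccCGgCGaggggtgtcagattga
Mecom outer start, chr3:30509760-30510009, minus strand: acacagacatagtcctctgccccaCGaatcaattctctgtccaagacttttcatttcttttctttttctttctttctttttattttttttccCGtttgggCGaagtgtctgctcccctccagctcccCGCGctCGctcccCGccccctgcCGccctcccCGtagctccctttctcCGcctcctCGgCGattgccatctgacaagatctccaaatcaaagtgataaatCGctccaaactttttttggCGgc
Mecom inner start, chr3:30013205-30013454, minus strand: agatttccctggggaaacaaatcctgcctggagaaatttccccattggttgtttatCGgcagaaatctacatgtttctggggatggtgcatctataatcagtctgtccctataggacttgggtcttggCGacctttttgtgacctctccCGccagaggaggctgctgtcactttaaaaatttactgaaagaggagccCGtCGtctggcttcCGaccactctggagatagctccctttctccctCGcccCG

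Over 300 bases (250 before and 50 after the start), CpG was densest at Gata2, with 32 CpG at the outer and 29 at the inner start. Prdm16 had 24 CpG, the outer Mecom start 19 and Meis1 15. The inner Mecom start had 9, with a ratio of observed to expected CpG of 0.488 against 1.02 at the outer one. The median over all 32851 promoters of the table was 7 CpG and a ratio of 0.384, so all 6 starts lay above the median. Of 28 other stem cell regulators, 21 had a promoter in the table, and in 17 the richest promoter held more CpG than that median. This sets the richest promoter of a gene against single promoters, which favours genes with several. The matching share over all genes was not computed, so the count says nothing particular about regulators. The Prdm16 start and the outer Mecom start also shared an unbroken run of 24 bases, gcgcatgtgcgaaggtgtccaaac, beginning 10 bases into the Prdm16 transcript and 27 bases into the Mecom transcript. It ended at the last of the 300 bases held for the Mecom start, so the match may be longer. Searched on both strands, this run was in 2 of the 32851 promoters (0.00609%), those of these 2 genes.

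H2AK119Ub was listed at Gata2 in all 3 oncogene libraries, at Meis1 and Mecom in HOXA9 and PML-RARa, and at Prdm16 in the non-transduced and MLL-AF9 libraries. No gene carried a peak in all 4 libraries. By library, 3 of the 4 windows held a HOXA9 peak, 3 a PML-RARa peak, 2 an MLL-AF9 peak and 1 a non-transduced peak. As background, peaks of all lists were merged where they overlapped or touched, which gave 2575 regions. Of these, 23.3% held a HOXA9 peak, 66.5% a PML-RARa peak, 52.4% an MLL-AF9 peak and 49.5% a non-transduced peak. Thus at most 23.3% could hold a peak of all 4 libraries, so the lack of such a gene here is not telling. The windows met 7 of the merged regions, of which 4 held a HOXA9 peak, 6 a PML-RARa peak, 4 an MLL-AF9 peak and 1 a non-transduced peak. One of the HOXA9 peaks counted here lay outside the Gata2 window, in a region that reached into it through the other lists. The 7 regions, 3 of them neighbours at Gata2, are too few to read a difference from the background, and none was tested.

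With the full lists, which differ in length, PML-RARa peaks covered the greatest length of the windows, 97.5 kb of 1180 kb (8.26%), against 1.46% of the whole span between the first and last peak of each chromosome. MLL-AF9 peaks covered 58.7 kb (4.98%), against 1.10% of the span, and HOXA9 peaks 45.0 kb (3.81%), against 0.548%. Non-transduced peaks covered 22.4 kb (1.89%), against 1.29%. With the full lists the windows were covered to a higher share than the span in each library. The windows were chosen with earlier results of these data known, and the span was not limited to genes. The higher share is therefore no measure of enrichment, and none was tested. Gata2, the shortest window, supplied 45.7 of the 58.7 kb covered by MLL-AF9 peaks, and a smaller part of every other total. The non-transduced value rests on 1 peak of low rank and was 0 kb in the upper 75% or 50% of the list by score and in its best 620 peaks. With the best 620 peaks of each list the order of the oncogene libraries turned round, with 45.0 kb for HOXA9, 33.8 kb for MLL-AF9 and 13.7 kb for PML-RARa. Depth and efficiency of the immunoprecipitation were unknown and can differ between the libraries, and their part in these differences was not tested.

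**Figure D1:**
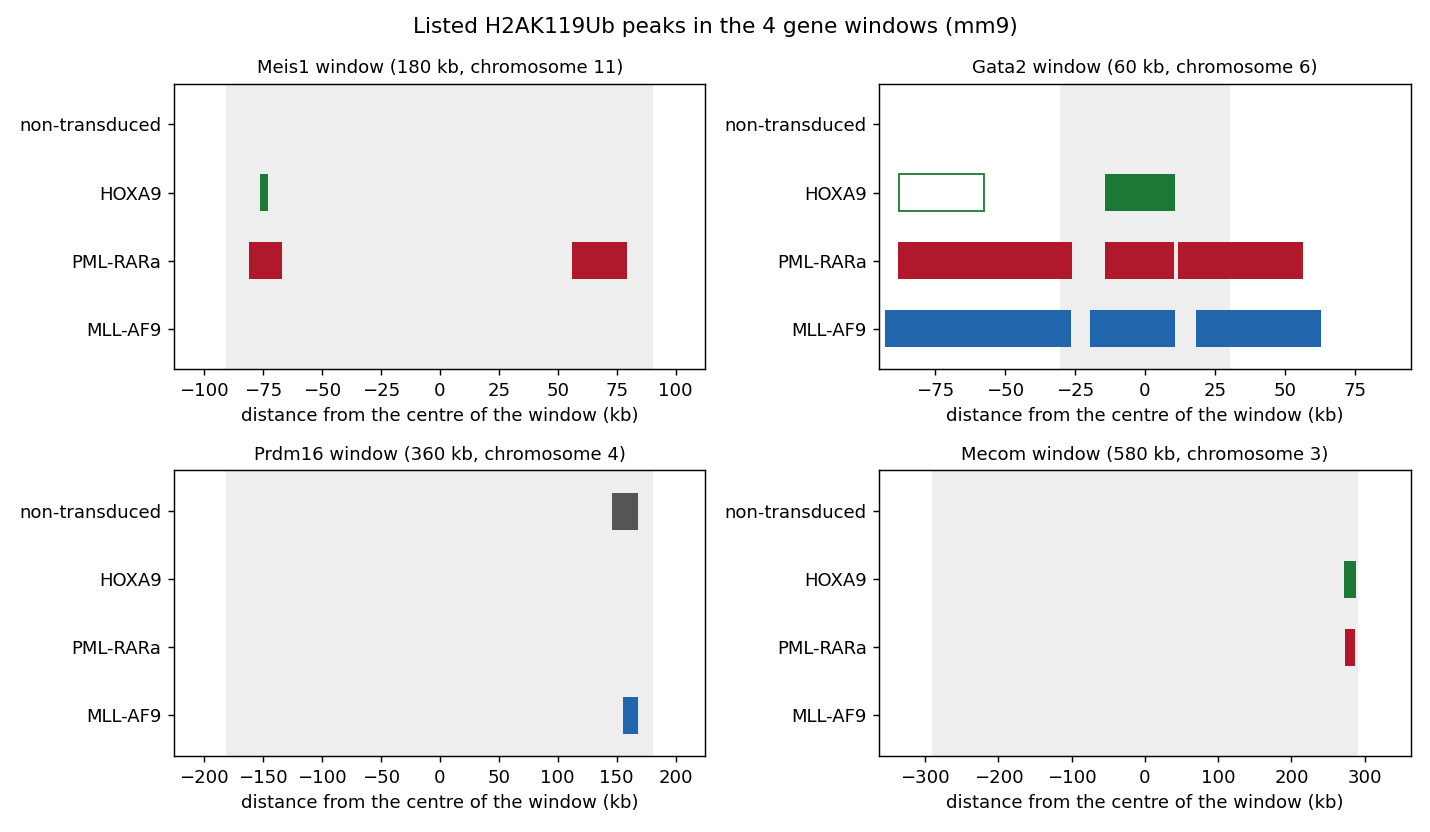
Listed H2AK119Ub peaks of each library in the Meis1, Gata2, Prdm16 and Mecom windows. The horizontal axis gives the distance from the window's centre in kb, grey shading marks the window, filled bars are the 14 peaks that overlap a window, and the open bar is the nearest HOXA9 peak outside the Gata2 window. The Meis1, Prdm16 and Mecom peaks lie near the ends of their windows, and Gata2 is marked in the 3 oncogene libraries.

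At Meis1 the mark was listed in PML-RARa and HOXA9. In PML-RARa a peak of 13.7 kb lay at 18769242 to 18782980 on chromosome 11. The authors' score of this peak, a value used here only to rank peaks within their own list, was 1845, which was rank 31 of 1772. It was the best-ranked of the 14 peaks, in the upper 1.75% of its list.

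In HOXA9 the only Meis1 peak lay inside that interval, at 18773728 to 18777414. It was 3.69 kb long, narrower than 97.6% of the peaks of its list, and its score of 766 had rank 501 of 620. The shared stretch was therefore the whole HOXA9 peak and 26.8% of the PML-RARa peak. A further PML-RARa peak of 23.2 kb, at 18906186 to 18929349 (score 1060, rank 724), had no listed partner in the other libraries. Regions of PML-RARa alone numbered 580 (22.5% of the merged regions), with a median width of 11.4 kb, and 80 of them were wider than this one.

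The 2 PML-RARa peaks left 123 kb between them without a call. Meis1 is on the minus strand in RefSeq, so the unpartnered peak was nearer to the end of the window that faces the 5′ end of the gene, and the shared site to the end that faces its 3′ end. Whether a peak overlapped a promoter, exon or intron is not given for any of the genes, because an mm9 annotation was not used here.

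The Meis1 site stood far from other listed peaks, but the lists are sparse and their typical spacing was not computed. HOXA9 had 620 peaks over the 2443 Mb between the first and last peaks of the chromosomes. The nearest HOXA9 peaks outside the window were 12790 kb below and 2951 kb above it, and those of PML-RARa 9807 kb below and 2947 kb above. No peak was listed at Meis1 in the non-transduced or MLL-AF9 libraries. The peak names carry numbers that run in order along the chromosomes, with gaps. A skipped number is read here as a numbered call that is not listed, a reading that the files do not state and that underlies each statement on missing numbers. In the non-transduced list the peaks on both sides of Meis1 had the consecutive numbers 155 and 156, so no numbered call lay anywhere in the 9932 kb between them. In MLL-AF9 2 numbers were missing across 16920 kb, so an unlisted call at Meis1 was possible there.

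At Gata2 the mark was listed in every oncogene library and not in the non-transduced one. A central peak spanned 88135795 to 88160830 on chromosome 6 for HOXA9 (25.0 kb), 88135853 to 88160492 for PML-RARa (24.6 kb) and 88130419 to 88160633 for MLL-AF9 (30.2 kb). The PML-RARa peak lay wholly within the others. These 3 peaks were all within the upper 50% of their lists by score. The HOXA9 peak scored 880 (rank 285 of 620) and the PML-RARa peak 1042 (rank 750 of 1772). The MLL-AF9 peak scored 1545, rank 45 of 1408, in the upper 3.20% of its list.

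The right ends of the central peaks fell within 338 bp of each other, slightly more than the 200 to 300 bp to which the chromatin was sheared. The left ends of HOXA9 and PML-RARa were 58 bp apart, and MLL-AF9 reached 5376 bp further than HOXA9. Over all 453 paired peaks of HOXA9 and PML-RARa (each overlapping only its partner) the median distances were 2108 bp at the left and 2374 bp at the right end. Of those pairs, 7.95% had closer left ends than the central Gata2 pair, and 20.1% had closer right ends. Against the central MLL-AF9 peak the left ends were farther apart than in most pairs. Closer left ends were found in 76.2% of the HOXA9 and MLL-AF9 pairs and in 72.5% of the PML-RARa and MLL-AF9 pairs.

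In PML-RARa and MLL-AF9 the central Gata2 peak was flanked on both sides. The lower flank ran from 88061675 to 88123973 in PML-RARa (62.3 kb) and from 88056946 to 88123603 in MLL-AF9 (66.7 kb). The upper flank ran from 88161811 to 88206681 in PML-RARa (44.9 kb) and from 88168167 to 88212949 in MLL-AF9 (44.8 kb). Both flanks were wide for their lists: 1.70% of the MLL-AF9 peaks and 2.93% of the PML-RARa peaks were wider than the lower flank, and 6.75% and 6.21% wider than the upper one. Their scores were lower than that of the central peak in both libraries, from 799 to 1101. Between the central peak and its flanks 11.9 kb below and 1.32 kb above were uncovered for PML-RARa, and 6.82 kb below and 7.53 kb above for MLL-AF9. No number was missing in these gaps. In RefSeq's gene order the protein-coding neighbours of Gata2 are Rpn1 below and Dnajb8 above.

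With the full lists, of which that of HOXA9 is the shortest, HOXA9 showed less of this domain. Its nearest peak below the window, at 88061940 to 88092459 (30.5 kb), began 265 bp from the lower PML-RARa flank but ended 31514 bp earlier. Of the HOXA9 and PML-RARa pairs 98.9% had closer right ends. Above the central peak HOXA9 had no listed peak for 1130 kb, with 1 number missing in that stretch. Within the window PML-RARa peaks covered 46.8 kb (78.0%), MLL-AF9 peaks 45.7 kb (76.1%) and the HOXA9 peak 25.0 kb (41.7%). This order depended on the flanks, most of whose length lay outside the window, and on list length. Counting only peaks with at least 50% of their length inside left 24.6 kb for PML-RARa, 25.0 kb for HOXA9 and 30.2 kb for MLL-AF9. Keeping the best-scoring 75% of peaks per library left 24.6 kb, 25.0 kb and 33.8 kb in the same order, and keeping 50% left the same values. When only the best 620 peaks of each list were kept, no PML-RARa peak remained in the window. HOXA9 still covered 25.0 kb there, less than the 33.8 kb that MLL-AF9 kept.

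The central and lower Gata2 sites were among the 72 merged regions (2.80%) with peaks in exactly the 3 oncogene libraries; at the lower site the HOXA9 peak itself lay outside the window. At 30.4 kb and 67.0 kb they were wider than the median of those regions, 23.9 kb, and 3 of the 72 were wider than the lower site. The upper flank was among the 195 regions (7.57%) listed in PML-RARa and MLL-AF9 alone, of which 10 were wider than its 51.1 kb. In the non-transduced list the nearest peaks were 429 kb below and 635 kb above the window. There 1 number was missing within 1124 kb, so at most 1 unlisted non-transduced call could lie at Gata2.

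**Figure D2:**
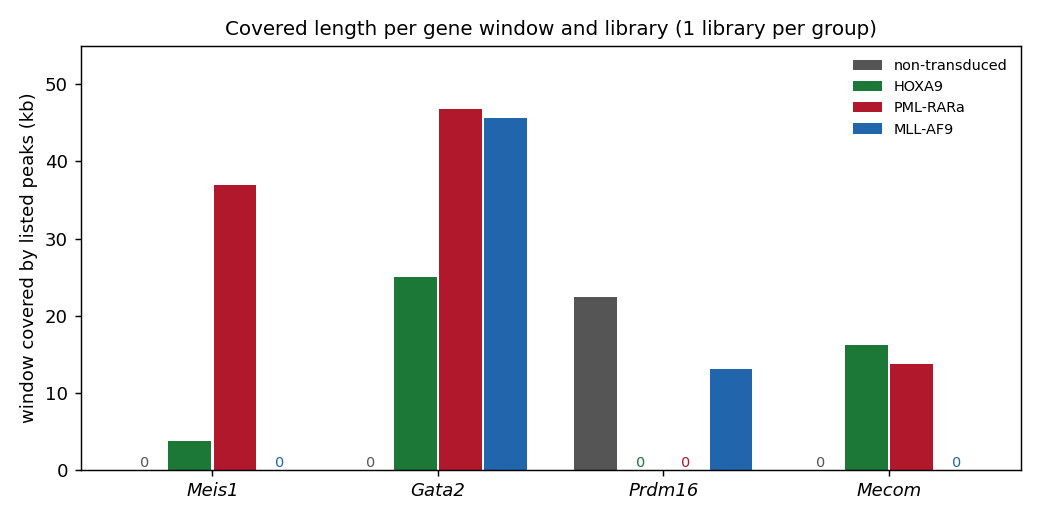
Length of each gene window covered by listed peaks, in kb, for the 4 libraries; each bar is 1 library and 0 marks a window with no listed peak. PML-RARa (46.8 kb) and MLL-AF9 (45.7 kb) are close at Gata2, and PML-RARa stands highest at Meis1 with 36.9 kb.

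At Prdm16 the libraries with a peak were the non-transduced one and MLL-AF9. The non-transduced peak spanned 153995939 to 154018295 on chromosome 4 (22.4 kb) and the MLL-AF9 peak 154005256 to 154018346 (13.1 kb). Their right ends were 51 bp apart, less than the sheared fragment length, and their left ends 9317 bp apart. Among the 692 paired peaks of these lists, 9.10% had closer right ends and 84.8% closer left ends. The MLL-AF9 peak was 0.586 times as wide as its partner, against a median ratio of 0.946 over the pairs.

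The Prdm16 scores were low to middling. The non-transduced peak, at 766, had rank 1115 of 1332, and the MLL-AF9 peak, at 994, rank 637 of 1408. Prdm16 is also on the minus strand, and both peaks ended 11.7 kb from the end of the window that faces its 5′ end. The other 326 kb of window below the non-transduced peak held no listed peak of any library, and no number of the non-transduced list was missing there.

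No Prdm16 peak was listed in PML-RARa or HOXA9. In PML-RARa the peaks on both sides had consecutive numbers (1466 and 1467), so no numbered call lay in the 747 kb between them. In HOXA9 1 number was missing within 1551 kb. Peaks in exactly the non-transduced and MLL-AF9 lists marked 112 merged regions (4.35%), with a median width of 20.5 kb, close to the 22.4 kb at Prdm16.

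At Mecom the libraries with a peak were HOXA9 and PML-RARa, as at Meis1. The HOXA9 peak spanned 30402154 to 30418382 on chromosome 3 (16.2 kb) and the PML-RARa peak 30402473 to 30416211 (13.7 kb). The left ends were 319 bp apart and the right ends 2171 bp, and the whole PML-RARa peak lay within the HOXA9 peak. The HOXA9 peak was near the bottom of its list, with a score of 723 and rank 601 of 620. The PML-RARa peak scored 928, rank 971 of 1772.

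Both Mecom peaks began 562 kb into the 580 kb window, at the end that faces the outer start of this minus-strand gene. In RefSeq the inner start is 497 kb from the outer one. No library had a listed peak in the 562 kb of window below these peaks, and in HOXA9 no number was missing there either. In PML-RARa 1 number was missing between the Mecom peak and the next listed peak below it, 21730 kb away.

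Mecom was even more isolated than Meis1. The HOXA9 peaks on both sides had the numbers 539 and 541, so the Mecom peak, number 540, was the only HOXA9 call in 43460 kb. The non-transduced list lacked 1 number across 28860 kb around Mecom, and MLL-AF9 lacked 2 across 30110 kb. Peaks in exactly HOXA9 and PML-RARa marked 54 merged regions (2.10%), with a median width of 16.2 kb, to which both Mecom and the shared Meis1 site belonged.

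**Figure D3:**
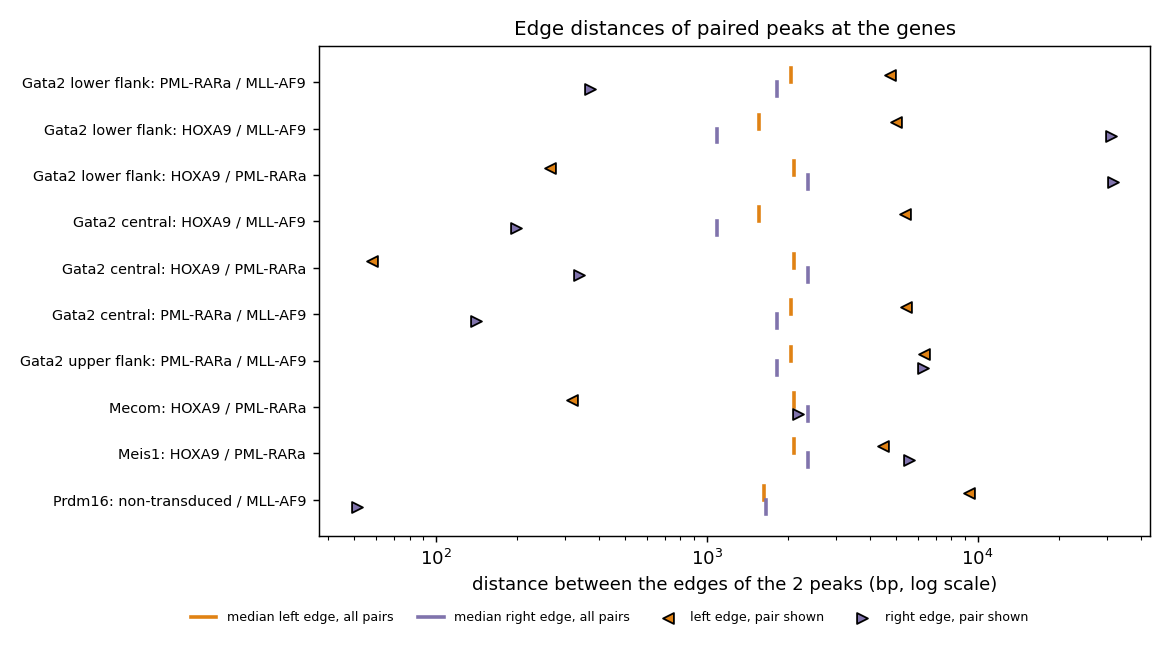
Distance between the left and right ends of paired peaks at the 4 genes, in bp on a log axis; triangles are the gene's pair and short lines the median over all pairs of the same 2 libraries. The right ends at Prdm16 (51 bp) and the left ends of HOXA9 and PML-RARa at the central Gata2 peak (58 bp) are closest, and the right ends of the HOXA9 peak at the lower Gata2 flank are 31514 and 31144 bp from those of its partners.

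Of the 16 combinations of gene and library, 9 had a listed peak and 7 did not. In 2 of the 7, Meis1 in the non-transduced library and Prdm16 in PML-RARa, the consecutive numbers left, on that reading, no place for an unlisted call. In the other 5 an unlisted call was possible: Gata2 and Mecom in the non-transduced library, Prdm16 in HOXA9, and Meis1 and Mecom in MLL-AF9. Unbroken numbering between neighbouring listed peaks is the usual case, so it is not particular to these genes. It held for 83.4% of the gaps in the PML-RARa list and 74.6% of those in the non-transduced list. The share was lowest for HOXA9, at 66.2%, while MLL-AF9 had 79.0%. The share among gaps of similar length was not computed. A missing peak means that none was listed, not that the mark was absent.

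**Figure D4:**
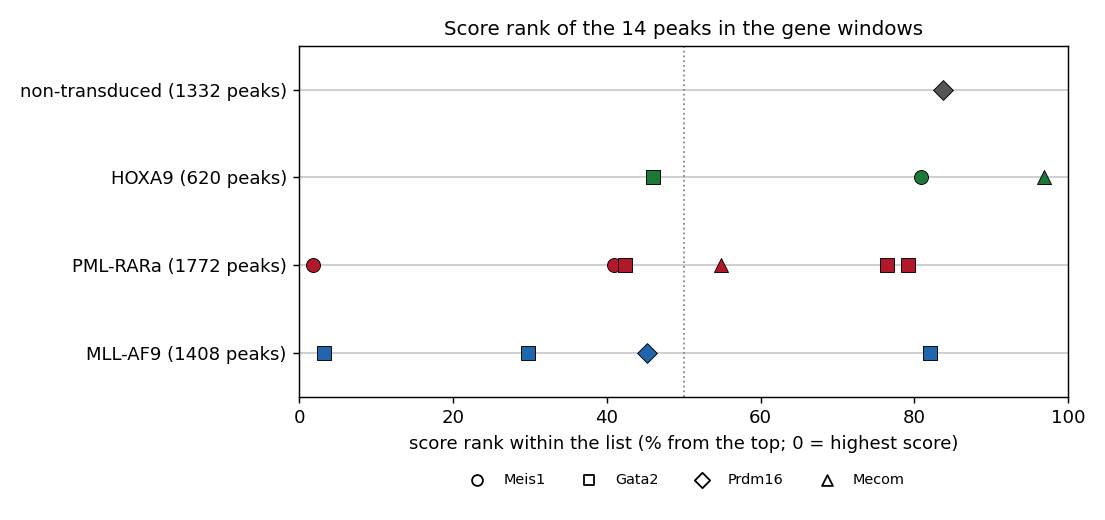
Score rank of the 14 peaks within their own list, as percent from the top, with a symbol for each gene and a row for each library; the dotted line marks the middle of the list. The Meis1 peak of PML-RARa (1.75%) and the central Gata2 peak of MLL-AF9 (3.20%) are near the top, and the Mecom peak of HOXA9 (96.9%) and the Prdm16 peak of the non-transduced library (83.7%) near the bottom.

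The score ranks bear on how far the pattern depends on list length. With the best 620 peaks of each list, as many as HOXA9 holds in all, PML-RARa had a peak at Meis1 alone, MLL-AF9 at Gata2 alone, and the non-transduced library at none of the genes. HOXA9 then had the most windows with a peak, 3, because its list was used whole. The upper 75% of each list by score held no non-transduced peak at the genes, and of the HOXA9 peaks only that at Gata2.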

How the data were processed

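H2AK119Ub was immunoprecipitated from chromatin fixed with 1% formaldehyde and sheared to 200 to 300 bp, per the labels' protocols. Of 5 samples, 4 had a peak list; the input was not analysed here. Bowtie and MACS2 were used with build mm9, per the submitters' processing notes; what versions and settings were used, and whether the input was, is not given in the sources used here. Every deposited list has 5 columns without a header, and the deposited score is the authors' own value per peak, on an unstated scale, at least 700 in every list. No read counts are held, so depth is unknown. BED starts were converted to positions counting from 1.

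The 4 genes, their windows and the regulator list were chosen with earlier results of these data known. All 4 genes are reported, absences included, and other peaks only as the nearest outside a window. Covered length was cut at the window edges, and ranks give tied scores the better rank. Peak numbers ran in file order and no list overlapped itself. Sequences are RefSeq's, matched by symbol. Overlap and coverage calculations were tested on simulated data (200 of 200 shared peaks found). The simulated shared peaks had a single partner with slightly shifted ends, so peaks that overlap several others were not tried. Alternatives were stricter lists, lists of equal length, other overlap rules, wider windows and merging. Python 3.11.15, numpy 2.4.6, pandas 2.3.3 and matplotlib 3.10.9 were used.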

Additional observations from a re-analysis of the deposited data

How the results depend on the processing

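Each group had 1 library and no result came from a test, so nothing here measures replicate error. No paired analysis was possible because no group had replicates. With the upper 75% of each list by score, the non-transduced library had 0 windows with a peak (0 kb) and HOXA9 1 (25.0 kb). With the upper 50%, these values were again 0 windows and 0 kb, and 1 window and 25.0 kb, and PML-RARa had 2 windows and 61.5 kb. With the best 620 peaks of each list, the non-transduced library had 0 windows and 0 kb, PML-RARa 1 and 13.7 kb, and MLL-AF9 1 and 33.8 kb. Widening each window by 50 kb on each side gave HOXA9 67.4 kb, MLL-AF9 142 kb and PML-RARa 174 kb. Counting whole peaks gave 155 kb for MLL-AF9 and 182.5 kb for PML-RARa, while HOXA9 stayed at 45.0 kb. The rises of MLL-AF9 and PML-RARa came from Gata2 flanks that run past the window, and that of HOXA9 from its peak below it. These alternatives remove or add peak length by construction. For the 9 combinations of gene and library with a listed peak, 63 covered lengths were computed under the alternatives: 42 stayed within 1.5 times, 11 fell to 0, 5 were lower but above 0 and 5 were higher. Part of the 42 could not move. Merging within 1000 bp changed none of the lengths, and peaks wholly inside a window are untouched by the whole-peak and overlap rules. The 7 combinations at 0 stayed at 0, which most of these alternatives fix by construction. The unknown depth limits every absence.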
